A study of Mus musculus with 12 samples.

Results

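The 10 genes described here, Klf2, Klf4, Klf5, Tfcp2l1, Esrrb, Nr0b1, Tbx3, Zfp42, Tcl1 and Prdm14, are genes of the naive pluripotency network of mouse embryonic stem cells. They were picked by gene name, not by a threshold on measured values, but with earlier results of these data known, from the 26061 rows of the deposited gene table, in which Tfcp2l1 is listed under its older symbol Tcfcp2l1. All 10 were found and all 10 were among the 14487 genes kept for testing. The label calls them transcription factors. That does not hold for Tcl1, which encodes a small co-activator of the kinase AKT that does not bind DNA itself. Nr0b1 encodes a corepressor without a DNA-binding domain of the usual kind.

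The libraries came from E14 cells, a mouse embryonic stem cell line of 129/Ola background, plated on gelatin with no feeder layer. Serum medium held 15% fetal bovine serum and LIF at 1000 U/ml, and the submitters call cells in it primed. In 2i medium, N2 and B27 supplements were combined with LIF and with PD0325901, an inhibitor of MEK, and CHIR99021, an inhibitor of GSK3, and cells in it are called naive. All cells, controls included, had been infected with a pLKO.1 lentivirus and put under puromycin at 1 µg/ml from 48 hours after infection, and they were harvested when selection had lasted 3 days. The virus carried the scrambled sequence shScr or an shRNA aimed at Setdb1, the gene of an enzyme that methylates H3K9. Crossing medium and shRNA gives 4 groups of 3 libraries, named here serum control and serum knockdown, and 2i control and 2i knockdown. RNA was sequenced after removal of ribosomal RNA. The labels do not say how many shRNA sequences against Setdb1 were used and name no rescue, so effects of Setdb1 loss and other effects of the shRNA cannot be told apart. Whether the replicates were grown separately is not stated either, so that p-values measure only the spread between libraries, part of which may be technical.

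In mouse embryonic stem cells, LIF acts through STAT3, whose known targets include Klf4 and Tfcp2l1, while MEK inhibition blocks the ERK signal that drives exit from the naive state. GSK3 inhibition stabilises beta-catenin and relieves repression by TCF7L1, of which Esrrb is a main target. The factors bind one another's genes and those of Oct4, Sox2 and Nanog, and many of them can support self-renewal when overexpressed. Zfp42, also called Rex1, is the usual marker gene of the state, and Prdm14 is known for repressing FGF receptor and de novo DNA methyltransferase genes.

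Sequence immediately upstream of the start site was available for 7 of the 10 genes, from RefSeq on GRCm38.p6, as 250 bases before the start in the direction of the gene. The promoters of Tfcp2l1 and Tcl1 are shown because these are genes whose level differed between the media, and that of Zfp42 because it was the most abundant of the 10 per length of transcript. Capitals mark matches, on either strand, to CCNCNCCC (the GC-rich box bound by KLF factors), to TCAAGGNCA (the half-site bound by ESRRB) and to ATGCAAAT (the octamer bound by Oct4). The Tfcp2l1 window lies at chr1:118627695-118627944 on the plus strand, that of Tcl1 at chr12:105222738-105222987 on the minus strand, and that of Zfp42 at chr8:43307010-43307259 on the minus strand.
Tfcp2l1: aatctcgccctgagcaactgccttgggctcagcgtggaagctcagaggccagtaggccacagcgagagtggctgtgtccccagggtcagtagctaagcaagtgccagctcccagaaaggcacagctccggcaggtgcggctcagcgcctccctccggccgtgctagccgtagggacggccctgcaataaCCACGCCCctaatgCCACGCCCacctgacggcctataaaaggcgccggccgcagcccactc
Tcl1: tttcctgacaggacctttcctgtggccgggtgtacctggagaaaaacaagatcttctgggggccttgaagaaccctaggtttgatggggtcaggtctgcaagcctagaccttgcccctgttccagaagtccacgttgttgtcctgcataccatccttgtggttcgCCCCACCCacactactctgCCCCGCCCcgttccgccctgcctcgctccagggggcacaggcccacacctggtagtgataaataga
Zfp42: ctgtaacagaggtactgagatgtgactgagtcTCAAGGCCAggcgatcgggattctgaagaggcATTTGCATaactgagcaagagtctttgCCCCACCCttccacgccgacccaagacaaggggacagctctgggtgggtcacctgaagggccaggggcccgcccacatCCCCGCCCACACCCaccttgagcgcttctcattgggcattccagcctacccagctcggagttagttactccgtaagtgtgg

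The Tfcp2l1 window held 2 KLF-box matches, starting 61 and 47 bases before the start, and the Tcl1 window 2, starting at 85 and 66 bases. In the Zfp42 window an ESRRB half-site match started 218 bases before the start, an octamer match 186 bases before it and 3 KLF-box matches at 159, 81 and 75 bases. KLF-box matches occurred in at least 1 window of 6 of the 7 genes, all but Nr0b1, and in 45.9% of the 32851 promoters in the table, so a match is common. The ESRRB half-site occurred in 1.39% and the octamer in 1.60% of all promoters. Of the other motifs searched, the STAT palindrome TTCNNNGAA was present in 7.02% of promoters and in 1 of 2 Esrrb windows, and the TCF motif CTTTGA in 13.8% and in the Nr0b1 window. KLF-box matches can overlap one another, as in Klf2 and Klf4, and GC content of the members' windows ran from 52.0% to 74.0% against a median of 52.4%. A match is a description of the letters, and binding was not measured.

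Libraries held 4821181 to 15509401 reads assigned to genes, the fewest in replicate 3 of 2i knockdown. Levels below are normalised reads, meaning reads recovered from the deposited values after division by each library's size factor. Setdb1 itself had 2959, 2237 and 1587 normalised reads in serum control replicates 1 to 3 and 418, 379 and 409 in serum knockdown. It had 3607, 2724 and 2253 in 2i control and 837, 610 and 340 in 2i knockdown, and it fell in both media (limma, adjusted p = 0.00219 in serum and 0.00173 in 2i). Among the embryonic stem cell markers, Pou5f1 averaged 13445 ± 1578 normalised reads in serum control (SD, n = 3) and Sox2 5979 ± 372. Structural RNA and tRNA families took 15.6% to 69.5% of repeat reads, with replicate 3 highest in each group. Because the RNA is from bulk samples, fewer cells expressing a gene and less of its RNA per cell cannot be told apart.

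Levels were compared between genes per length of transcript, as mean normalised reads per kilobase of the longest coding transcript in the GENCODE annotation. Zfp42 was highest of the 10 in every group, with 6189 per kilobase in serum control and 5054 in 2i control. Prdm14, at 70.0 per kilobase in serum control and 148 in 2i control, was lowest in 3 groups, and Klf5 took that place in 2i control with 134. Nr0b1 stood second in serum control at 923 per kilobase and sixth in 2i control at 482. Tfcp2l1 moved from the fourth place (529) to the second (1183) between the same groups.

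**Figure D1:**
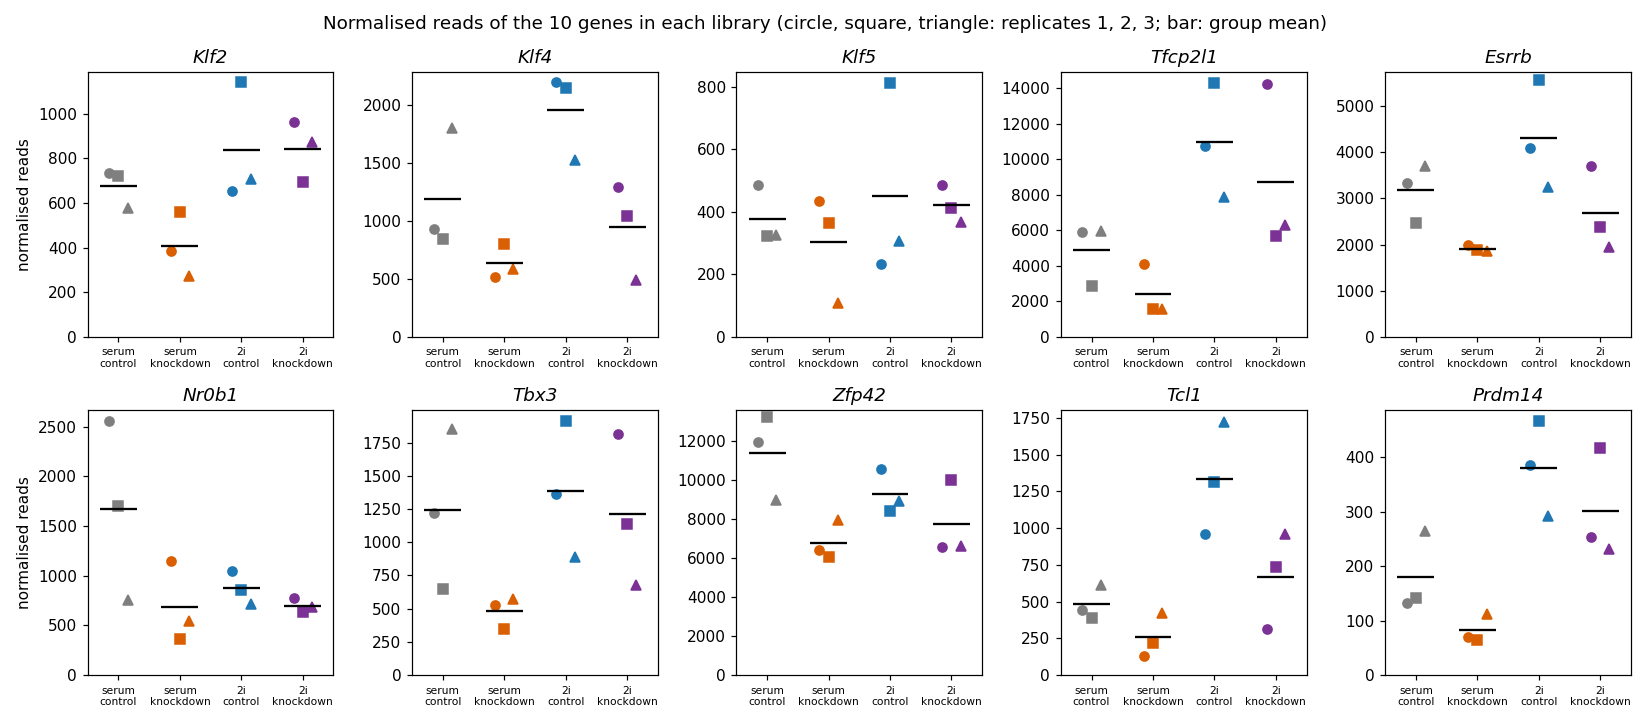
Normalised reads (y axis, linear from 0, a separate scale per gene) of each of the 10 genes in the 12 libraries, by group on the x axis; symbols give replicates 1 to 3 and the bar the group mean. In serum knockdown (orange) the bar is the lowest of the 4 groups for all 10 genes.

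Serum knockdown had the lowest mean of the 4 groups for all 10 genes, and 21.6% of tested genes had their lowest mean there. In 2i control the mean was highest for 7 of the 10 (21.1% of tested genes). Nr0b1 and Zfp42 were highest in serum control and Klf2 in 2i knockdown. Most neighbours in these orders overlapped in their libraries. The exceptions were the third and the fourth place for Klf2 (serum control above serum knockdown), Tbx3 (2i knockdown above serum knockdown) and Prdm14 (serum control above serum knockdown).

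The question in serum was whether the Setdb1 knockdown was accompanied by a different level of these genes. None of the 10 passed the test (limma on the deposited log2 values, Benjamini-Hochberg adjusted p between 0.524 and 1.00, where 0.0483% of all tested genes passed as lower), and limma on log2(normalised reads + 1) called 0 as well. All 10 changes were below 0, as were 50.2% of all tested genes, with a median of −0.82 on the log2 scale against 0.00 for all genes. At an unadjusted p under 0.05, 9 of the 10 were lower, against 1.42% of tested genes. In 6 of them, Klf2, Klf4, Esrrb, Tbx3, Zfp42 and Prdm14, every knockdown library lay below every control library, against 3.59% of tested genes. The summed level of the 10 genes was 12199 to 15706 normalised reads in serum knockdown and 23303 to 27689 in serum control.

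Same-numbered serum libraries deviated together from their group means, so the numbers were treated as pairs. With the replicate number as a block within each medium, 2 genes passed as lower, Tbx3 (adjusted p = 0.0326, limma) and Nr0b1 (adjusted p = 0.0473), where 0.235% of all tested genes did. The knockdown library was the lower one in 29 of the 30 pairs of gene and replicate number. The 1 exception was Klf5 in pair 2, with a difference of 0.16 on the log2 scale. These 30 come from the same 3 pairs of libraries, and the share over all tested genes was not counted. In 2i the numbers were not taken as pairs. Matching by number there gave 23 of 30, a count that another matching could change and that is not comparable with the one in serum. Structural RNA shares of 24.2%, 29.9% and 48.3% in serum control stood beside 16.2%, 15.6% and 42.6% in serum knockdown. With that share as a covariate, 0 members passed.

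In 2i, 8 of the 10 changes with knockdown were below 0 (48.8% of all tested genes were), and Klf2 joined them at −0.01 when libraries were centred on their medians. None passed (limma, adjusted p between 0.310 and 0.989, where 0.0552% of tested genes passed as lower; on log2(normalised reads + 1), 0). With the replicate number as a block within each medium, Klf4 and Tcl1 passed as lower (adjusted p = 0.0487 for each, limma). So did 34 of the 14487 tested genes, and in 2i the numbers were not taken as pairs. The median change was −0.30 on the log2 scale. At an unadjusted p under 0.05, 3 genes were lower, Klf4, Esrrb and Tcl1, against 1.95% of tested genes. Klf4 was the 1 gene whose knockdown libraries all lay below the control libraries, against 4.33% of tested genes. The summed level ran from 19144 to 30396 normalised reads in 2i knockdown and from 26194 to 36876 in 2i control, so the groups overlapped.

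**Figure D2:**
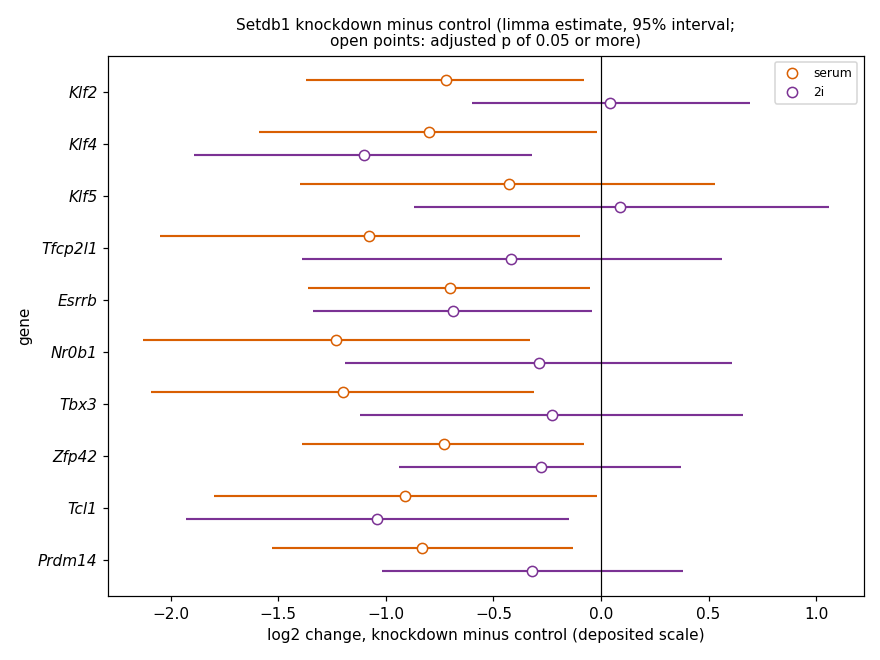
Change with Setdb1 knockdown (log2 scale of the deposited values) for each of the 10 genes in serum and in 2i, with 95% intervals. The serum values lie between −1.23 and −0.43, and the 2i values between −1.10 and 0.09.

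The difference between the changes in 2i and in serum was tested itself as an interaction. It passed for none of the 10 genes, at an adjusted p of 1.00 for each (limma), and 0 were under an unadjusted p of 0.05, as 1.65% of tested genes were in the higher direction. Over all 14487 tested genes 0.0% passed. Tbx3 had the largest value at 0.97 on the log2 scale, with a 95% interval from −0.29 to 2.22, followed by Nr0b1 at 0.94 (−0.33 to 2.21) and Klf2 at 0.77 (−0.15 to 1.68). Intervals of this width include 0 and also differences of over 1 on the log2 scale, so the data do not show whether the response differs between the media. For Esrrb the value was 0.02, and it lay at or below 0 on leaving out any of 6 libraries (replicates 1 and 3 of serum control and of 2i control, replicate 3 of serum knockdown and replicate 1 of 2i knockdown, −0.24 to 0.00).

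Averaged over both media, all 10 knockdown changes were below 0 (49.3% of tested genes were), with a median of −0.71 on the log2 scale. None passed (limma, where 0.131% of tested genes passed as lower; on log2(normalised reads + 1), 0), and 8 were lower at an unadjusted p under 0.05, against 2.40% of tested genes. Tcl1 stood at −0.98 (SE 0.30, adjusted p = 0.152, limma), Klf4 at −0.95 (SE 0.26, adjusted p = 0.0939) and Esrrb at −0.70 (SE 0.22, adjusted p = 0.170). Replicate 1 of 2i knockdown bore on this count. Without it Klf4 (−1.09, adjusted p = 0.0291) and Esrrb (−0.82, adjusted p = 0.0479) passed, where 0.2% of tested genes passed as lower. With the replicate number as a block within each medium 5 genes passed, Tcl1 (adjusted p = 0.00593, limma), Klf4 (0.0105), Esrrb (0.0365), Tbx3 (0.0401) and Nr0b1 (0.0467), where 0.69% of tested genes passed as lower. The numbers were taken as pairs in serum only. With the structural RNA share as a covariate 3 genes passed, again against 0.69% of tested genes, Klf4 (−0.99, adjusted p = 0.0127), Esrrb (−0.73, adjusted p = 0.0153) and Tcl1 (−0.88, adjusted p = 0.00370). Klf5 was at −0.17 and turned to 0.09 without replicate 3 of serum knockdown and to 0.07 without replicate 2 of 2i control.

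The effect of the medium was asked in control cells, in knockdown cells and as the mean of both. In control cells 8 of the 10 genes were above 0 in 2i minus serum (45.5% of tested genes were), none passed (limma, where 1.73% of tested genes passed as higher; on log2(normalised reads + 1), 0), and 3 were higher at an unadjusted p under 0.05 (8.04%). These 3, Tcl1, Tfcp2l1 and Prdm14, were also the ones whose 2i libraries all lay above the serum libraries, against 11.0% of tested genes. In knockdown cells all 10 were above 0 (46.2% of tested genes were) and 5 were higher at an unadjusted p under 0.05 (9.02%). Of these 2 passed, Prdm14 and Tfcp2l1, where 2.15% of tested genes passed as higher. The 2i libraries lay above all serum libraries for Klf2, Tfcp2l1, Tbx3 and Prdm14, against 8.99% of tested genes. Over both shRNAs 8 of the 10 differences were above 0 (45.8% of tested genes were), and 6 were higher at an unadjusted p under 0.05 (12.6%). In this mean 3 genes rose with 2i, Prdm14, Tfcp2l1 and Tcl1, where 6.59% of tested genes passed as higher, and this call held for the 3 of them in each of the 12 fits that left out 1 library. The control-cell and knockdown-cell comparisons share no library, but the mean is built from both, and the knockdown-cell comparison shares the serum knockdown libraries with the knockdown change in serum. Without the filter on low values, or with only the groups compared in the fit, 0 genes passed in knockdown cells. Without the filter 1, Prdm14, passed in the mean, where 2.08% of all genes passed as higher. In control cells 1 passed with only those groups in the fit, Tcl1, against 1.53% of tested genes. Structural RNA took 15.6% to 48.3% of repeat reads in serum and 19.9% to 69.5% in 2i, and with that share as a covariate 6 genes passed in the mean, Klf2, Klf4 and Esrrb among them (6.54% of tested genes passed as higher). With it 2 passed in control cells, Tcl1 and Tfcp2l1 (3.89%).

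**Figure D3:**
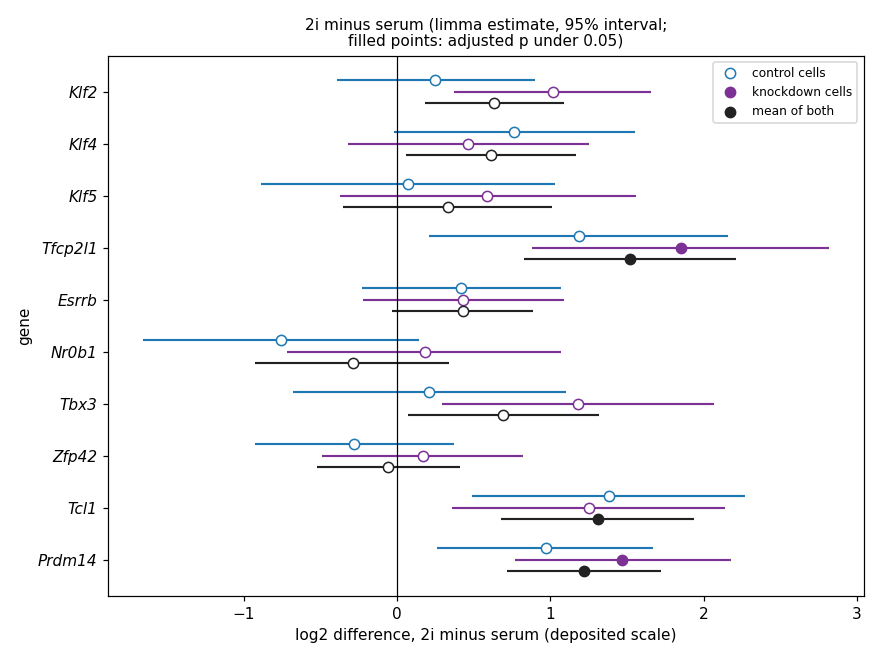
Difference between media, 2i minus serum (log2 scale of the deposited values), for each of the 10 genes in control cells, in knockdown cells and as the mean of both, with 95% intervals; filled points passed the test. Tfcp2l1, Tcl1 and Prdm14 have values of 0.97 or more in all 3, and Zfp42 lies between −0.28 and 0.17.

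Among the KLF factors, which bind GC-rich boxes and can replace one another in part, Klf2 is the one linked to MEK inhibition. Klf2 had 736, 721 and 576 normalised reads in serum control and 387, 562 and 274 in serum knockdown, 60.1% of the control mean. In 2i it had 656, 1145 and 707 with the control shRNA and 962, 696 and 874 with knockdown. The serum groups did not overlap, while in 2i the knockdown values lay within the control range. Its change was −0.72 in serum (SE 0.30, adjusted p = 0.840, limma) and 0.04 in 2i (SE 0.30, adjusted p = 0.989), the latter turning below 0 on leaving out replicate 1 or 3 of 2i control or replicate 1 of 2i knockdown (−0.10, −0.05 and −0.05). The mean difference between media was 0.63 (adjusted p = 0.0619, limma), and it passed on leaving out replicate 2 of serum knockdown (0.75, adjusted p = 0.0471).

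Klf4, a direct STAT3 target and one of the reprogramming factors, had 928, 840 and 1800 normalised reads in serum control. The serum knockdown libraries had 516, 798 and 589, all below the lowest control. In 2i control it had 2201, 2149 and 1525 and in 2i knockdown 1293, 1046 and 492, and again no library of one group reached the other. Klf4 is thus the gene of the 10 in which the groups separated in both media. The change was −0.80 in serum (SE 0.37, adjusted p = 0.943, limma) and −1.10 in 2i (SE 0.37, adjusted p = 0.310), with means of 53.3% and 48.2% of control. Between media it stood at 0.61 on average (adjusted p = 0.137), which passed without replicate 3 of 2i knockdown (0.81, adjusted p = 0.0410).

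Klf5, a factor also active in trophectoderm, had groups that overlapped throughout. It had 487, 321 and 325 normalised reads in serum control and 435, 363 and 107 in serum knockdown. In 2i control the values were 232, 812 and 306, a coefficient of variation of 70.1%, and in 2i knockdown 485, 413 and 368. Its serum change of −0.43 (SE 0.45) rested on replicate 3 of serum knockdown, since it was 0.09 without it, and it was the 1 gene of the 10 above an unadjusted p of 0.05 in that comparison. The 2i change was 0.09 and at or below 0 without replicate 1 or 3 of 2i control or replicate 1 of 2i knockdown (−0.24, −0.07 and 0.00), and the medium difference in control cells was 0.07, and it turned to −0.42 without replicate 2 of 2i control and to −0.03 and −0.02 without replicates 2 and 3 of serum control.

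The rest of the family gives the setting for these 3. Of 15 KLF genes tested, members included, none passed with knockdown in either medium, and the median change in serum was −0.09 on the log2 scale. Klf8 (0.95, adjusted p = 0.0130, limma) and Klf15 (0.84, adjusted p = 0.0314) rose with 2i on average. They were the 2 of 15 that passed as higher, where 6.59% of all tested genes did, and the family median was −0.10. In serum control Klf8 and Klf15 had 549 ± 190 and 122 ± 71.9 normalised reads (SD, n = 3).

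Tfcp2l1, a CP2-family factor that carries much of the LIF signal to the network, was the second most abundant of the 10 per kilobase in 2i. It had 5916, 2851 and 5955 normalised reads in serum control and 4112, 1578 and 1587 in serum knockdown. Replicate 1 of the knockdown lay above replicate 2 of the control, so the groups overlapped although every same-numbered pair was lower with knockdown. In 2i it had 10720, 14278 and 7891 in control cells and 14237, 5654 and 6272 in knockdown cells, and every 2i library lay above every serum library with the same shRNA. The knockdown change was −1.08 in serum (SE 0.46, adjusted p = 0.849, limma) and −0.42 in 2i (SE 0.46, adjusted p = 0.902).

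Between media Tfcp2l1 was 2.23-fold higher in control cells (adjusted p = 0.180, limma) and 3.60-fold higher in knockdown cells (1.85 on the log2 scale, SE 0.46, adjusted p = 0.0363). The knockdown-cell call ended on leaving out replicate 2 or 3 of serum knockdown (adjusted p = 0.189 and 0.0913), replicate 1, 2 or 3 of 2i knockdown (0.0503, 0.0536 and 0.0714) or replicate 1 of 2i control (0.0517), while the change stayed between 1.43 and 2.09. The mean difference was 1.52 (SE 0.32, adjusted p = 0.00619). Its paralogue Tfcp2, listed as Tcfcp2, was called higher in both contrasts. It rose with knockdown by 0.94 averaged over media (adjusted p = 0.0409, limma) and with 2i by 0.98 (adjusted p = 0.00895), from 112 ± 43.7 normalised reads in serum control to 520 ± 42.1 in 2i knockdown (SD, n = 3).

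Esrrb, an orphan nuclear receptor and main target of the GSK3 and TCF7L1 branch, had 3339, 2472 and 3704 normalised reads in serum control. The serum knockdown libraries were close together at 1981, 1881 and 1852, a coefficient of variation of 3.55%, and all lay below control. In 2i control Esrrb had 4094, 5556 and 3249, and in 2i knockdown 3712, 2387 and 1955. There the groups overlapped through replicate 1 of the knockdown. The change was −0.70 in serum (SE 0.31, adjusted p = 0.890, limma) and −0.69 in 2i (SE 0.31, adjusted p = 0.617), or 60.1% and 62.4% of control. Between media it stood at 0.43 on average (adjusted p = 0.216).

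Nr0b1, also called Dax1, encodes an orphan nuclear receptor without a DNA-binding domain of the usual kind that acts as a corepressor. Its serum control values of 2556, 1696 and 755 normalised reads were spread over a wide range, and serum knockdown had 1148, 360 and 544. The pairs were all lower with knockdown, at −1.13, −2.11 and −0.44 on the log2 scale for replicates 1 to 3, while the groups overlapped. In 2i it had 1046, 856 and 712 in control and 774, 637 and 686 in knockdown. The serum change was −1.23 (SE 0.42, adjusted p = 0.524, limma), the largest of the 10, and the 2i change was −0.29 (SE 0.42, adjusted p = 0.931). Nr0b1 and Zfp42 were the members not higher in 2i control than in serum control, with −0.76 for Nr0b1 (SE 0.42, adjusted p = 0.389). In knockdown cells Nr0b1 stood at 0.18 and at −0.18 without replicate 2 of serum knockdown.

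Tbx3, a T-box factor that is linked in these cells to PI3K signalling and can also favour extraembryonic endoderm, had 1219, 648 and 1856 normalised reads in serum control and 530, 344 and 571 in serum knockdown, 38.8% of the control mean. All knockdown libraries lay below all controls. In 2i the values were 1364, 1916 and 887 in control and 1812, 1140 and 678 in knockdown, and these overlapped. The change was −1.20 in serum (SE 0.42, adjusted p = 0.539, limma) and −0.23 in 2i (SE 0.42, adjusted p = 0.947), the latter turning to 0.11 without replicate 3 of 2i knockdown and to 0.03 without replicate 2 of 2i control. In knockdown cells Tbx3 was 2.51-fold higher in 2i than in serum, with no overlap (1.18 on the log2 scale, adjusted p = 0.139). In control cells the difference was 0.21, and it turned to −0.18 without replicate 2 of serum control and to −0.05 without replicate 2 of 2i control.

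Zfp42, a YY1-related zinc-finger gene, had the smallest mean difference between media of the 10. It had 11933, 13222 and 8954 normalised reads in serum control and 6398, 6028 and 7930 in serum knockdown, 59.7% of the control mean, and the groups did not overlap. The 2i values were 10559, 8388 and 8904 in control and 6557, 10018 and 6626 in knockdown. Here the second knockdown library lay inside the control range. The change was −0.73 in serum (SE 0.31, adjusted p = 0.840, limma) and −0.28 in 2i (SE 0.31, adjusted p = 0.902). The mean difference between media was −0.06, with a 95% interval from −0.52 to 0.41. It was 0.00 without replicate 2 of serum control or replicate 3 of serum knockdown, and in knockdown cells the value of 0.17 turned to −0.03 without replicate 2 of 2i knockdown.

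Tcl1, the AKT co-activator, had 442, 390 and 613 normalised reads in serum control and 129, 220 and 423 in serum knockdown. In 2i it had 960, 1311 and 1723 in control and 311, 735 and 962 in knockdown, so that in each medium the highest knockdown library lay just above the lowest control. All 3 serum pairs were lower with knockdown. The change was −0.91 in serum (SE 0.42, adjusted p = 0.943, limma) and −1.04 in 2i (SE 0.42, adjusted p = 0.519), or 53.4% and 50.3% of control. With the structural RNA share as a covariate the 2i change was −1.13 and passed (adjusted p = 0.0114).

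Between media Tcl1 rose by 1.31 on average (SE 0.30, adjusted p = 0.00862, limma). In control cells it was 2.77-fold higher in 2i with no overlap (1.38 on the log2 scale, adjusted p = 0.0846), and this passed without replicate 1 of 2i knockdown (adjusted p = 0.0318), whose omission changes the shared spread and not the groups compared. In knockdown cells the difference was 1.25 (adjusted p = 0.118) and passed without replicate 1 of 2i knockdown (1.69, adjusted p = 0.0142) or replicate 3 of serum knockdown (1.63, adjusted p = 0.0449). With the structural RNA share as a covariate the difference was smaller, at 0.54 in knockdown cells (adjusted p = 0.351) and 0.80 in the mean (adjusted p = 0.0117). The related gene Tcl1b1 had no read in any library.

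Prdm14, a PR-domain zinc-finger factor, was the lowest of the 10 per kilobase in all groups but 2i control. It had 132, 142 and 264 normalised reads in serum control and 70.0, 64.8 and 112 in serum knockdown, 45.9% of the control mean and without overlap. In 2i it had 385, 466 and 291 in control and 254, 416 and 232 in knockdown, all above every serum library with the same shRNA. The change with knockdown was −0.83 in serum (SE 0.33, adjusted p = 0.779, limma) and −0.32 in 2i (SE 0.33, adjusted p = 0.899).

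Between media Prdm14 was 2.12-fold higher in control cells (0.97 on the log2 scale, adjusted p = 0.123, limma) and 3.66-fold higher in knockdown cells (1.47, SE 0.33, adjusted p = 0.0220). The latter call ended without replicate 1 or 2 of serum knockdown (adjusted p = 0.0771 and 0.122) or replicate 2 of 2i knockdown (0.0981). The mean difference was 1.22 (SE 0.23, adjusted p = 0.00329). Of 7 tested genes from a list that PRDM14 is known to repress, 2 fell with 2i on average, where 7.18% of all tested genes did, the de novo methyltransferase Dnmt3a by 2.54 on the log2 scale (adjusted p = 0.000188) and the receptor Fgfr2 by 1.05 (adjusted p = 0.0276). Dnmt3b stood at −1.57 (adjusted p = 0.0729). Of the 7, 5 were below 0 and 2 above it, where 45.8% of tested genes were above 0. These 2 were Uhrf1 at 0.43 and the receptor gene Fgfr1 at 0.04. None of the 7 passed with knockdown in serum, where they ran from −0.27 for Uhrf1 to 1.10 for Dnmt3a (adjusted p = 0.839 for Dnmt3a, limma). There 1 of the 7 was below 0, as were 50.2% of all tested genes.

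Other genes of the network were counted in lists chosen with earlier results of these data known. Of 18 core pluripotency genes tested, none passed with knockdown in either medium, and Pou5f1, Sox2 and Nanog stood at −0.20, −0.12 and −0.85 in serum (adjusted p = 1.00, 1.00 and 0.930, limma). Fgf4 stood at −0.96 there (adjusted p = 0.624). In serum 14 of the 18 changes were below 0, where 50.2% of tested genes were, with a list median of −0.14. With 2i on average 5 of the 18 fell and none rose (of all tested genes 7.18% fell and 6.59% rose), among them Dppa2 by 2.16 and Dppa4 by 1.33 (adjusted p = 0.000603 and 0.000742, limma). Of 24 other naive-state genes, 1 fell with knockdown in serum, where 0.0483% of tested genes did, the small GTPase gene Mras by 2.07 (adjusted p = 0.0273, limma). Of these 24 changes in serum, 17 were below 0, against the same 50.2% of tested genes, with a median of −0.27. Averaged over media, Mras fell by 1.54 (adjusted p = 0.00700) and the maternal factor gene Dppa3 rose by 3.02 (adjusted p = 0.0124), where 0.131% of tested genes fell and 1.76% rose. The medium moved 6 of the 24, with 5 higher, such as Spic at 2.86 and Lefty2 at 1.61, and 1 lower, Eras at −3.50, against the same shares of 6.59% and 7.18%.

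The signalling branches that 2i acts on were read from their response genes. Of 18 tested ERK response genes, 9 fell and 1 rose with 2i on average (7.18% and 6.59% of all tested genes did), with Spry4 at −3.86, Etv4 at −2.47, Dusp6 at −2.46 and Dusp4 at −2.36, and a list median of −0.94 against −0.05 for all genes. Wnt response genes went up in 6 of 15 cases (6.59% of all tested genes) and down in 1 (7.18%), led by Sp5 at 2.87 and Axin2 at 1.97. The LIF and STAT3 list, whose ligand was in both media, had 1 rise and 1 fall among 15, the receptor subunit gene Il6st at 0.78 and the kinase gene Pim3 at −1.02, and both counts are near the shares over all tested genes (6.59% and 7.18%). With knockdown in serum none of these 3 lists had a gene that passed, and Stat3 stood at −0.14 and Socs3 at −0.19. In 2i 1 Wnt response gene rose with knockdown, Apcdd1 by 1.73 (adjusted p = 0.0446, limma), where 1.21% of tested genes rose. Averaged over media 1 rose, Bambi by 1.19 (adjusted p = 0.0180, limma), where 1.76% of tested genes did. Of 9 beta-catenin and TCF factor genes none passed in any of the 7 comparisons, and Tcf7l1 stood at 0.13 in serum and −0.26 in 2i with knockdown.

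Genes of the primed and early post-implantation state were examined beside the serum knockdown values. None of 19 tested passed with knockdown in serum, where their median was 0.37 on the log2 scale. In that comparison 14 were above 0 and 5 below it, where 50.2% of all tested genes were below 0. The summed level of the list was 5916 to 18203 normalised reads in serum knockdown and 4773 to 9474 in serum control. Fgf5, a defining gene of that state, was too low to be among the 19 tested. It had 6.81 ± 11.8 normalised reads in serum control and 6.54 ± 7.04 in serum knockdown (SD, n = 3) and no read in the 2i libraries. Markers of the 2-cell stage, which rare embryonic stem cells express, summed to 6050 to 30153 normalised reads over 12 genes in serum control, 4493 to 19075 in serum knockdown, 38.7 to 302 in 2i control and 696 to 7508 in 2i knockdown. Endoderm markers summed to 3021 to 3362 in serum control, 2975 to 3802 in serum knockdown, 3400 to 3449 in 2i control and 2364 to 5602 in 2i knockdown. The part of such cells in the values of the 10 genes was not tested.

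Across the 12 libraries the deposited values of the 10 genes were positively correlated in 42 of 45 pairs, with a median Pearson r of 0.49 and a range from −0.08 to 0.91. Klf4 and Esrrb had the highest value at 0.91, followed by Esrrb and Tbx3 at 0.88. These points share groups, so part of the likeness is that between groups. After the group means were removed, 26 of 45 pairs were positive and the median was 0.05, with Esrrb and Tbx3 at 0.91, Klf2 and Klf5 at 0.81 and Tfcp2l1 and Tcl1 at −0.62. The residual values share the library, its depth and its RNA composition.

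**Figure D4:**
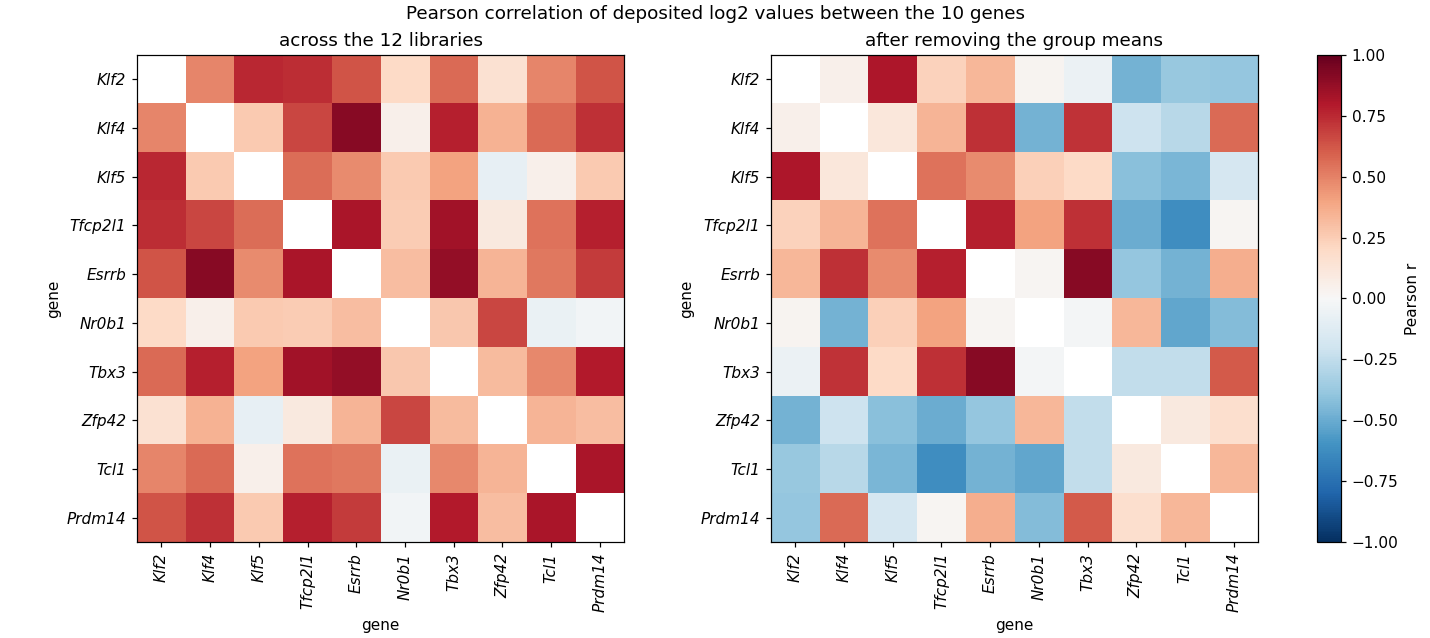
Pearson correlation of the deposited log2 values between each pair of the 10 genes over the 12 libraries (left) and after removal of the group means (right); colour gives r from −1 to 1. Most cells on the left are red, and Tcl1 with Tfcp2l1 is the deepest blue on the right.

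Among all tested genes, the pattern of Klf4 over the 12 libraries was most like that of Hap1 (r = 0.909) and then of Esrrb (r = 0.907), and Klf4 headed the list for Esrrb. For the other 8 the closest gene was not a member. It was Mtmr12 for Tfcp2l1 (r = 0.972), Galnt11 for Tcl1 (r = 0.957), Prkar1a for Klf5 (r = 0.955), Nid1 for Prdm14 (r = 0.954), Cab39 for Nr0b1 (r = 0.926), Acvr1b for Tbx3 (r = 0.908), Plekhg1 for Klf2 (r = 0.894) and Cdc5l for Zfp42 (r = 0.879). With 14487 genes compared over 12 libraries, high values at the top of such a ranking can occur without any relation between the genes.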

How the data were processed

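Ribosomal-RNA-depleted RNA sequencing was done on 12 libraries, 3 in each of 4 groups. The deposited gene table holds log2-scale variance-stabilised values that the authors made. Per the submitters' processing notes, DESeq2, TopHat2 2.0.9 and Trim Galore 0.3.3 were used with build mm9. How reads were counted, with which annotation and whether by strand is not given in the sources used here, so overlapping and antisense genes are uncertain. The transformation was inverted, and 100% of values were whole reads within 0.01 of a read. Dividing by size factors gave normalised reads.

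The 14487 genes with a mean of 0.5 or more over the lowest value in the table, 4.4522, entered a limma 3.58.1 fit (R 4.3.3) of the deposited values on 4 group means, with 8 residual degrees of freedom, empirical Bayes variances with a trend, two-sided tests and Benjamini-Hochberg adjustment over those genes. A gene passed at an adjusted p under 0.05. Since the transformation shrinks the changes of genes with few reads, folds came from mean normalised reads. The procedure was tested on simulated data.

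Same-numbered libraries were checked for pairing by the correlation of their deviations from the group means. In serum these were 0.582, 0.234 and 0.510, and the numbers were taken as pairs there. The pairing comes from the data, since the labels give only the number.

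The members and gene lists were chosen with earlier results of these data known. Besides the members and Setdb1, at most 4 genes per list and comparison were named, those with the largest change among genes that passed with no overlap, or at most 2 with the smallest adjusted p where none passed. Pou5f1, Sox2, Nanog, Stat3, Socs3, Tcf7l1, Dnmt3b, Fgf5 and Tcl1b1 were named outside that rule for their known roles, after their values were seen. Uhrf1 and Fgfr1 were named as the genes of their list that went the other way with 2i. For likeness of pattern, names come from the 3 tested genes with the highest Pearson correlation to a member. Alternatives changed the filter, scaling, block, covariate, trend, libraries and the scale of the values. mm9 coordinates are not given. Promoter sequences are from RefSeq on GRCm38.p6.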

Additional observations from a re-analysis of the deposited data

How the results depend on the processing

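Of 1480 alternative values for single genes, 1397 kept direction and side of the threshold, 16 lost a call, 34 gained one and 33 changed sign, and every sign change was in a value that did not pass. The number of the 10 genes that passed went from 0 to 2 for knockdown in serum with the replicate block within medium, from 0 to 2 (that block) or 1 (structural RNA covariate) for knockdown in 2i, and from 0 to 2, 5 or 3 for the mean knockdown change with the replicate block over all libraries, the block within medium and the covariate. Lower calls over all 14487 tested genes went from 7 to 34 in serum and from 8 to 34 or 29 in 2i. In the mean they went from 19 to 67, 100 and 100. The number of members passing went from 0 to 2, 2 and 1 for the media in control cells with the replicate block, the covariate and only the groups compared. Higher calls over all tested genes there went from 251 to 666, 564 and 221. From 2 in knockdown cells the members passing went to 4 with the replicate block, 1 with quantile normalisation and 0 without a filter or with only the groups compared. Higher calls over all tested genes there were 311, against 876 with the block and 332 with quantile normalisation. They were 114 (of 26061 genes) without a filter and 128 with only the groups compared. For the mean difference between media the members passing went from 3 to 6 with the covariate (Klf2, Klf4 and Esrrb added) and 1 without a filter (Tfcp2l1 at adjusted p = 0.0543 and Tcl1 at 0.0633, limma). Higher calls over all tested genes there went from 954 to 947 and 542 (of 26061 genes). Leaving out 1 library gave 0 to 2 members passing for the mean knockdown change, 0 to 1 in control cells and 0 to 2 in knockdown cells. The same-number correlations of replicates 1 to 3 were 0.456, 0.057 and 0.524 between the 2i groups. They were 0.232, −0.177 and 0.219 between the control groups and 0.497, 0.005 and 0.439 between the knockdown groups. Replicates 1 and 3 thus matched by number and replicate 2 did not, so outside serum the numbers were not taken as pairs. The cause of the shifts in the counts was not tested. The planned voom fit with TMM factors was not run, because the deposited unit is not counts.

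Leaving out 1 library changed the sign of these values, given as their range over the 12 fits. For 2i minus serum they were Klf5 (−0.42 to 0.40) and Tbx3 (−0.18 to 0.55) in control cells, Nr0b1 (−0.18 to 0.61) and Zfp42 (−0.03 to 0.29) in knockdown cells, and Zfp42 in the mean (−0.16 to 0.00). For knockdown they were Klf5 in serum (−0.76 to 0.09) and in the mean (−0.34 to 0.09), and Klf2 (−0.10 to 0.28), Klf5 (−0.24 to 0.58) and Tbx3 (−0.57 to 0.11) in 2i. For the difference of the knockdown changes they were Esrrb (−0.24 to 0.22), Klf4 (−0.63 to 0.09) and Tcl1 (−0.47 to 0.31). Under other scalings Klf2 in 2i gave −0.01 (median centring) and Esrrb in the difference of changes 0.00 (median centring) and −0.07 (quantile normalisation). Prdm14 had the fewest reads of the 10, and replicate 3 of 2i knockdown was the shallowest library; what depth adds to the error of single genes was not tested.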
